A study of Mus musculus with 3 samples.

Results

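Respiratory chain genes were followed in T cells sorted out of tumours that MC38 cells, a colon carcinoma line of the mouse, had formed in mice. Members were the genes whose symbol begins with Nduf, Sdha to Sdhd, Uqcr, Cox4 to Cox8 or Atp5, and the mitochondrially encoded mt-Nd, mt-Co, mt-Cytb and mt-Atp genes, with at least 20 UMIs (unique molecular identifiers, counted transcripts) over all libraries. Of 111 symbols that matched, 106 were kept out of 32285 genes in the files, 93 of them nuclear and 13 mitochondrial. The 5 that were dropped were Cox4i2 (6 UMIs), Cox8b (2), Cox8c (1), Cox7b2 (0) and Ndufa4l2 (0). By complex, the nuclear members were 45 genes of complex I, 8 of complex II, 8 of complex III, 15 of complex IV and 17 of complex V. Assembly factors whose symbols fit the rule, such as Ndufaf6 and Sdhaf1, are among them.

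The series held 3 single-cell libraries named PBS, mix and homo, each of them the only one of its group. Each came from CD3-sorted tumour cells taken on day 15, after 5 days of treatment, and was prepared with a 10x Genomics kit that reads the 3′ end of transcripts. By its title the series is about an interleukin-2 targeted at LAG3, but neither the agents of mix and homo are stated, nor the strain, age or number of mice behind a library. MC38 is 1 transplanted cell line, and the groups share it.

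The respiratory chain moves electrons from NADH and succinate to oxygen through complexes I to IV and pumps protons, and complex V, the ATP synthase, uses the proton gradient to make ATP. Complexes I, III, IV and V are built from proteins of both genomes, while complex II is wholly nuclear. Mitochondrial genes are transcribed inside the organelle as long precursors that are cut into mRNAs, so their RNA is made and broken down separately from that of the nuclear genes. T cells raise respiration as they are activated, and regulatory and memory T cells are known for their use of it.

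The 13 mt- genes lie on the mitochondrial genome, chromosome M of GRCm38, and some of them overlap. The coding sequence of mt-Atp8 (M:7766-7969, plus strand), a small ATP synthase subunit, ends inside that of mt-Atp6 (M:7927-8607), which encodes the proton channel subunit. The 43 bases they share (chrM:7927-7969) are shown because mt-Atp8 had the largest library ratio among the members, and reads within this stretch fit both genes. Capitals mark the start codon of mt-Atp6.
mt-Atp8 and mt-Atp6 overlap: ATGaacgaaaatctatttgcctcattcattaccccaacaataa
How such reads were counted is not given in the sources used here. The genes mt-Nd4l and mt-Nd4 share 7 bases, and mt-Nd5 shares 14 with mt-Nd6, the member encoded on the minus strand.

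Promoter windows of 300 bases (250 before to 50 after the start, RefSeq, GRCm38.p6) were matched for 77 of the 93 nuclear members. Letters of known promoter motifs were searched on both strands. The core site of NRF1, a transcription factor of respiratory genes, was in 20 of 77 member windows (26.0%) against 4.78% of 27025 promoters. CCGGAAG, the core of ETS factors such as GABP, was in 21 (27.3% against 9.12%), and AANATGGCG, the core of YY1, was in 10 (13% against 2.51%). The TATA box letters TATAAA were in 7 (9.09% against 14.2%), and CCAAT was in 34 (44.2% against 37.9%). A match describes letters only. The part of the window that lies ahead of annotated exons is printed for 4 genes, in the direction of the gene. Ndufaf4, a complex I assembly factor, and Ndufb6, an accessory subunit, show an NRF1 and an ETS match and were picked after the search, and Atp5g1 and Ndufa4 are shown because later results turn on them. Capitals mark the motif matches. Ndufaf4 is at chr4:24897833-24898082 (plus strand), Ndufb6 at chr4:40279422-40279671 (minus), Atp5g1 at chr11:96075671-96075881 (minus) and Ndufa4 at chr6:11907498-11907700 (minus).
Ndufaf4: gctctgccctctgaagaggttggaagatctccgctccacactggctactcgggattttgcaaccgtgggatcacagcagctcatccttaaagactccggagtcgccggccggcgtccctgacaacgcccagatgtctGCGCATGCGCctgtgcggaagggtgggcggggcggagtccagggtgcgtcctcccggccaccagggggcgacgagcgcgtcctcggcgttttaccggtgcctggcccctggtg
Ndufb6: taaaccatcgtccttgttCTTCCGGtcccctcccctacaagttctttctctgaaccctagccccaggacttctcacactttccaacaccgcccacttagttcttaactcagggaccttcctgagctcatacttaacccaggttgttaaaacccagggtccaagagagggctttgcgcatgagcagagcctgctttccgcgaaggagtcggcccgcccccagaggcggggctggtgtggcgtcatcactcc
Atp5g1: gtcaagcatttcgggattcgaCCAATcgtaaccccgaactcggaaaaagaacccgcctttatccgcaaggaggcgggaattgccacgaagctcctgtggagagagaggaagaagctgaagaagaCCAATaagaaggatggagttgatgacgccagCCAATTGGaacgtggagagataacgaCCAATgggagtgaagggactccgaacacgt
Ndufa4: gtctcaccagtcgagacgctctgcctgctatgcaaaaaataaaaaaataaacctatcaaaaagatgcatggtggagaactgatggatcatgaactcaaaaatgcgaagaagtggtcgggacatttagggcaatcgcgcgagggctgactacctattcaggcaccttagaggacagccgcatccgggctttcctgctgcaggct
Atp5g1 held 5 CCAAT matches in this stretch over both strands, a pair of them overlapping, while none of the 5 motifs was found in the whole window of Ndufa4.

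Cells were gated on single UMIs. The CD8 gate required at least 1 UMI of a Cd3 gene and of Cd8a or Cd8b1, with 0 of Cd4 and Foxp3. The Foxp3 gate required at least 1 UMI of a Cd3 gene and of Foxp3, which defines regulatory T cells, with 0 of Cd8a and Cd8b1. In the order PBS, mix and homo, the CD8 gate held 7121, 5588 and 6527 cells, with medians of 5113, 5637 and 6907 UMIs per cell. The Foxp3 gate held 842, 808 and 124 cells, with medians of 3093, 3473 and 3368 UMIs. Its 124 cells in homo gave 478164 UMIs in all, so values there are the least precise. All 5 T cell markers were detected in both gates, but the Cd3 genes among them are gate genes. Of the 6 regulatory T cell markers, Foxp3 is a gate gene. The other 5, Il2ra, Ctla4, Ikzf2, Tnfrsf18 and Tnfrsf4, were detected in both gates, so detection alone does not separate the gates. Their levels were higher in the Foxp3 gate of each library. Libraries shared between 100 and 131 barcodes in each pair.

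Nuclear respiratory genes made up a similar part of the RNA in every library, while mt- genes did not. In the CD8 gate, nuclear members were 2.48% of UMIs in PBS, 2.38% in mix and 2.43% in homo. The mt- members were 0.386%, 0.423% and 0.668%. In the Foxp3 gate, nuclear members were 2.26%, 2.16% and 2.25%, and mt- members 0.291%, 0.307% and 0.649%. The homo library thus stood above the other libraries in its mt- share in both gates, and the Foxp3 gate lay below the CD8 gate in its nuclear share in each library. The mt- UMIs per nuclear member UMI were 0.156, 0.178 and 0.275 in the CD8 gate of PBS, mix and homo, and 0.128, 0.143 and 0.289 in the Foxp3 gate. In homo the order of the gates in this ratio of sums differed. It also differed at 3000 to 8000 UMIs (0.294 in the CD8 and 0.319 in the Foxp3 gate) and with gates of at least 2 UMIs (0.271 and 0.317). The same held without a mitochondrial limit, without doublet removal and without cells with Mki67 or Top2a. Only a mitochondrial limit of 5% gave homo the order of the other libraries, with 0.270 in the CD8 and 0.239 in the Foxp3 gate. The median ratio per cell was lower in the Foxp3 gate of each library. It was 0.139, 0.151 and 0.238 in the CD8 gate and 0.0981, 0.108 and 0.188 in the Foxp3 gate. Over single cells, the median mt- share was 0.333%, 0.35% and 0.560% in the CD8 gate and 0.201%, 0.217% and 0.368% in the Foxp3 gate. The summed mt- share of homo in the Foxp3 gate, 0.649%, was above the upper quartile of its cells, 0.608%.

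**Figure D1:**
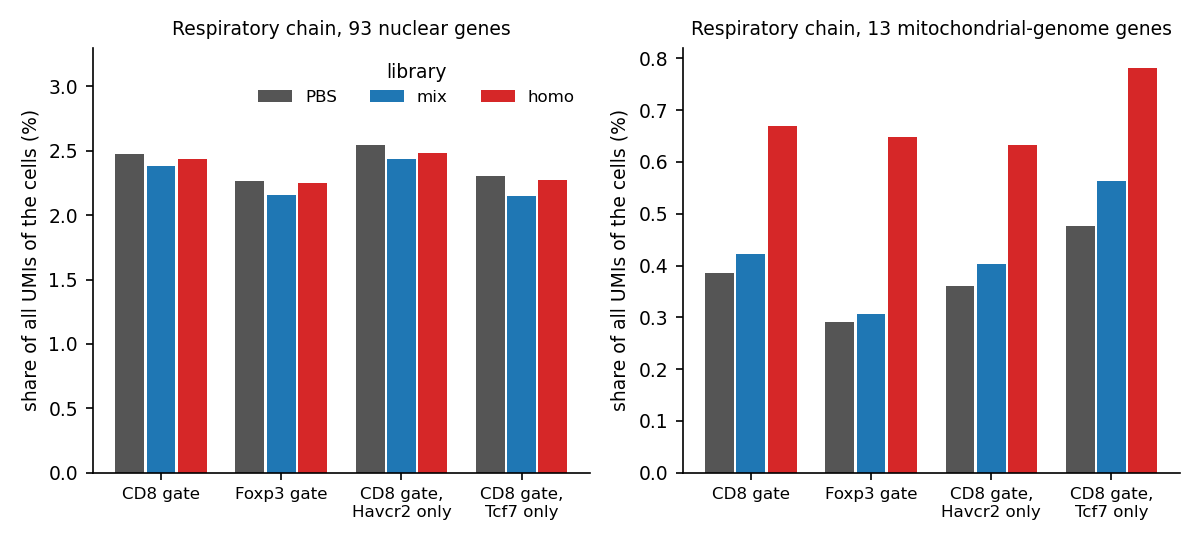
Share of all UMIs, in percent, that fell on the 93 nuclear members (left) and the 13 mt- members (right), for cells of the CD8 gate, the Foxp3 gate, and CD8-gate cells with Havcr2 only or Tcf7 only. Bars are the summed UMIs of 1 library each and carry no error; the mt- bars of homo range from 0.634% to 0.781% and lie above those of PBS and mix in each cell group, while nuclear bars range from 2.15% to 2.54%.

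The first comparison set the Foxp3 gate against the CD8 gate, to ask whether regulatory T cells differ from CD8 T cells in respiratory gene RNA. Most nuclear members and nearly all mt- members were lower in the Foxp3 gate. UMIs were summed per library and gate, and the 6 sums were tested with edgeR's quasi-likelihood test with the library as a block and Benjamini-Hochberg adjustment over 12600 genes. Of 92 nuclear members that passed the low count filter, 57 were lower, 3 were higher and 32 did not pass the test, where 20.4% of all genes tested were lower, 20.5% higher and 40.9% either. Of 13 mt- members, 12 were lower. The median log2 fold change was -0.30 for nuclear and -0.54 for mt- members, against -0.03 for all genes tested. The 3 libraries had different treatments, so the spread behind these tests includes treatment.

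These fold changes rest on TMM scaling, while the gene levels given below in CPM are scaled to totals alone. By these levels, 51 of the 92 nuclear members were lower in the Foxp3 gate of all 3 libraries and 15 were higher. Of the 13 mt- members, 8 were lower in all 3 and 0 higher. Of the 12600 genes tested, 2906 were lower in all 3 and 4964 higher. Scaled by library totals, the median of all genes rose by 0.16, and 28 nuclear members were lower and 5 higher, so that 15.2% of nuclear calls were higher in place of 5.0%. Over all genes the higher share of calls was 66.9% in place of 50.2%. Relative to the median of all genes, the nuclear median was -0.27 with TMM and -0.26 with totals, and the mt- median -0.51 and -0.49. Scaling moves all genes of a comparison by nearly the same amount, so these differences could hardly change and are no check. The nuclear calls numbered 39 without PBS (36 lower), 34 without mix (31 lower) and 68 without homo (63 lower), and the mt- calls 9, 9 and 12, all lower.

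Sdhaf1 was the member with the largest rise in the Foxp3 gate. It encodes an assembly factor that helps insert iron-sulfur clusters into complex II. Its level was 97.0, 92.3 and 102.5 CPM, the UMIs of the gene scaled to a common total per gate, in the Foxp3 gate of PBS, mix and homo, and 25.4, 22.7 and 21.8 CPM in the CD8 gate. The gates did not overlap, and the log2 fold change was 1.85 (SE 0.09, edgeR adjusted p = 2.0e-09). On GRCm38 the gene (chr7:30321406-30323895, minus strand) overlaps E130208F15Rik on the other strand, and whether counting used strand is not given in the sources used here.

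Ndufs4, an accessory subunit of complex I, and Ndufa4, a subunit of complex IV despite its name, were the other nuclear members that rose. Ndufs4 was at 190, 180 and 201 CPM in the Foxp3 gate and 123, 124 and 120 CPM in the CD8 gate (log2 fold change 0.45, SE 0.08, edgeR adjusted p = 0.00043). Ndufa4 was at 381, 338 and 385 CPM against 257, 237 and 243 CPM (0.39, SE 0.08, edgeR adjusted p = 0.00085). Both were higher in CPM in each of the 3 libraries, as were 4964 of the 12600 genes tested. They were also higher under each of the 3 scalings, which move all genes by nearly the same amount.

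Among members that fell, Ndufaf6, a complex I assembly factor, was lowest, at 2.4, 3.53 and 4.18 CPM in the Foxp3 gate of PBS, mix and homo against 8.99, 6.86 and 7.95 CPM (log2 fold change -1.52, SE 0.31, edgeR adjusted p = 0.0012). Sdhaf3, another complex II assembly factor, was at 7.21, 5.0 and 6.27 CPM against 10.7, 10.8 and 11.1 CPM (-0.98, SE 0.23, adjusted p = 0.0038). Their values rest on 2 and 3 UMIs in the Foxp3 gate of homo. Atp5g1, one of the 3 genes of the ATP synthase c ring, was at 187, 161 and 132 CPM against 265, 234 and 188 CPM (-0.69, SE 0.08, adjusted p = 1.1e-05). Atp5f1, of the peripheral stalk of the ATP synthase, was at 270, 252 and 259 CPM against 355, 367 and 392 CPM (-0.68, SE 0.08). In each of these 4 genes the CPM of every library was lower in the Foxp3 gate, as it was in 2906 of the 12600 genes tested.

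Members that passed the test were counted per complex, and differences between complexes were not tested. Complex V had 13 of 17 nuclear members lower and 0 higher, complex I 29 of 45 lower and 1 higher, complex IV 9 of 14 lower and 1 higher, and complex III 4 of 8 lower and 0 higher. Complex II had 2 of 8 lower and 1 higher. Its summed CPM, which includes Sdhaf1, was higher in the Foxp3 gate of each library. The log2 ratios were 0.32, 0.29 and 0.24 in PBS, mix and homo, with counting intervals above 0. The nuclear sums of the other complexes were lower in each library, though the interval of complex III in homo included 0. Within complex I, 5 of 7 catalytic core subunits, 20 of 30 accessory subunits and 4 of 8 assembly factors were lower. Among the complex IV subunits called lower were Cox4i1 at -0.49, Cox8a at -0.48, Cox6a1 at -0.43 and Cox7a2 at -0.34, and Cox7a2l, a factor that links complexes III and IV, was at -0.48. The c ring genes were not alike in their calls. Atp5g2 fell by 0.56 on the log2 scale (adjusted p = 3.6e-05), while Atp5g3 was at 733, 683 and 611 CPM against 690, 631 and 609 CPM and did not pass the test (-0.11, SE 0.08, edgeR adjusted p = 0.28). The CPM of Atp5g3 was thus higher in the Foxp3 gate of each library, while its fold change, scaled by TMM, was below 0. The 3 genes encode the same mature protein with different import signals, and the difference between them was not tested.

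Every mt- member except mt-Nd6 was called lower in the Foxp3 gate. The lowest was mt-Nd3, a complex I subunit, at 12.3, 14.7 and 27.2 CPM in the Foxp3 gate of PBS, mix and homo and 22.1, 25.6 and 46.2 CPM in the CD8 gate (log2 fold change -0.98, SE 0.13, edgeR adjusted p = 4.5e-05). The other mt- complex I genes were mt-Nd2 at -0.71, mt-Nd5 at -0.66, mt-Nd1 at -0.64, mt-Nd4 at -0.62 and mt-Nd4l at -0.54. The catalytic complex IV subunits were mt-Co3 at -0.68, mt-Co1 at -0.52 and mt-Co2 at -0.39. Of complex V, mt-Atp6 was at -0.51 and mt-Atp8 at -0.38, and mt-Cytb of complex III was at -0.34. Some libraries went against these calls. In mt-Nd1, mt-Co2, mt-Atp8 and mt-Cytb the CPM of homo was higher in the Foxp3 gate. mt-Nd6 was at 9.31, 7.94 and 20.9 CPM against 8.45, 8.61 and 13.7 CPM (-0.05, SE 0.21, edgeR adjusted p = 0.89).

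The summed mt- share was lower in the Foxp3 gate of PBS and mix, and in homo its interval included 0. The log2 ratio of the Foxp3 gate over the CD8 gate was -0.41 for PBS, with a 95% interval from -0.44 to -0.38. It was -0.46 for mix (-0.49 to -0.43) and -0.043 for homo (-0.095 to 0.0077), with intervals of counting error only. In homo it was -0.28 with a mitochondrial limit of 5% and 0.14 with gates of at least 2 UMIs. The nuclear sum had ratios of -0.13, -0.14 and -0.12. Whether the libraries differ in the gate ratio was not tested, since each is a single sample.

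Other features moved with the gates. Ribosomal protein genes took 23.3%, 22.9% and 25.2% of UMIs in the CD8 gate and 14.2%, 14.3% and 16.0% in the Foxp3 gate. Scaled by totals without mt- and ribosomal protein genes, 56 nuclear members were lower and 3 higher, and 12 mt- members were lower. Dendritic cell markers summed to 598, 784 and 255 CPM in the Foxp3 gate against 76.6, 61.2 and 17.0 CPM in the CD8 gate. Of the 7 genes, Cd74 gave most of this (522, 629 and 241 CPM in the Foxp3 gate). H2-Aa was at 38.8, 80.6 and 6.27 CPM against 11.9, 9.88 and 0.216 CPM and H2-Ab1 at 34.3, 72.9 and 8.37 CPM against 11.8, 8.44 and 2.05 CPM, so both were higher in the Foxp3 gate of each library. Itgax was lower there (2.4, 0.294 and 0 CPM against 10.0, 7.0 and 8.84 CPM), Xcr1 was under 1 CPM, and the defining markers Flt3 and Cd209a were at most 0.316 CPM in both gates. Macrophage markers summed to 66.7, 55.6 and 10.5 CPM against 28.2, 13.4 and 19.9 CPM. The part of these genes in the result was not tested.

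Within the CD8 gate, cells with Havcr2 (TIM-3, a receptor of exhausted T cells) and no Tcf7 UMI were set against cells with Tcf7, which encodes TCF1 and marks stem-like T cells, and no Havcr2 UMI. Here nuclear and mt- members went opposite ways. By edgeR's quasi-likelihood test over 11777 genes, 30 of 92 nuclear members were higher in the Havcr2 cells and 2 were lower, where 15.1% of all genes were higher, 15.0% lower and 30.1% either. Of the mt- members, 12 of 13 were lower and mt-Nd3 did not pass (-0.21, SE 0.10, edgeR adjusted p = 0.17). The median log2 fold change was 0.15 for nuclear and -0.37 for mt- members, against -0.0025 for all genes. All 13 mt- genes were lower in CPM in each of the 3 libraries, as were 4075 of the 11777 genes tested.

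The nuclear direction here depended on the scaling. With totals that leave out mt- and ribosomal protein genes, 10 nuclear members were higher and 10 lower, so that 50% of calls were higher in place of 93.8%, and the nuclear median was -0.0089. The same scaling lowered the median of all genes by 0.16 (-0.16 against -0.0025) and the higher share of all calls to 28.8% from 50.2%. Relative to the median of all genes, the nuclear median was 0.16 under each of the 3 scalings and the mt- median -0.36. A change of scaling moves all genes by nearly the same amount, so this sameness is built in and is no check of the direction. Ribosomal protein genes took 22.2%, 21.8% and 24.6% of UMIs in the Havcr2 cells of PBS, mix and homo and 29.0%, 29.0% and 28.4% in the Tcf7 cells. Dendritic cell markers summed to 48.5, 43.4 and 15.6 CPM in the Havcr2 cells against 264, 114 and 21.6 CPM in the Tcf7 cells. Cd74 was the largest part in the Tcf7 cells (154, 63.5 and 9.39 CPM), while Flt3 was at 1.95, 0.925 and 0.235 CPM. NK cell markers summed to 23.4, 22.0 and 27.1 CPM against 67.4, 77.7 and 63.9 CPM. Eomes gave most of this in the Tcf7 cells (53.2, 63.5 and 42.0 CPM), while Ncr1 was at 0, 0 and 0.705 CPM. Cycling cells were 25.7%, 26.4% and 34.9% of the Havcr2 cells and 14.1%, 14.2% and 20.5% of the Tcf7 cells. The part of these markers and of cycling in the result was not tested. Havcr2 cells also had more UMIs per cell, with medians of 6108, 6808 and 8408.5 against 4459.5, 4454 and 5651, and in cells of 3000 to 8000 UMIs 17 nuclear members were higher and 3 lower. Without PBS, 5 nuclear and 2 mt- members passed the test, without mix 2 and 1, and without homo 45 and 12.

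Cox5a, a nuclear subunit of complex IV, was the highest nuclear member that passed. It was at 564, 556 and 645 CPM in the Havcr2 cells of PBS, mix and homo and 437, 352 and 405 CPM in the Tcf7 cells (log2 fold change 0.61, SE 0.09, edgeR adjusted p = 0.0042). The complex I subunits Ndufb7 and Ndufb8 were at 0.59 and 0.53. These 3 genes were also called higher when mt- and ribosomal protein genes were left out of the totals, with log2 fold changes of 0.45, 0.42 and 0.36. By complex, 13 of 45 members of complex I, 6 of 14 of complex IV, 7 of 17 of complex V, 3 of 8 of complex III and 1 of 8 of complex II were higher. The complex V calls were in 6 of 9 stalk and membrane genes and in 1 of 5 genes of the catalytic F1 part, while 0 of 3 c ring genes passed.

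Ndufa4 and Sdhaf1 were the nuclear members that fell in this comparison. Ndufa4 was at 221, 200.3 and 238 CPM in the Havcr2 cells and 431, 380 and 326 CPM in the Tcf7 cells (log2 fold change -0.74, SE 0.12, edgeR adjusted p = 0.0046). Sdhaf1 was at 21.0, 21.1 and 19.6 CPM against 39.6, 31.4 and 32.6 CPM (-0.70, SE 0.11, edgeR adjusted p = 0.0045). Neither gene overlapped between the cell groups, and both fell under each of the 3 scalings. They were thus higher in the Foxp3 gate than in the CD8 gate, and within the CD8 gate lower in Havcr2 than in Tcf7 cells. Both comparisons use cells of the CD8 gate, so they are not independent.

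**Figure D2:**
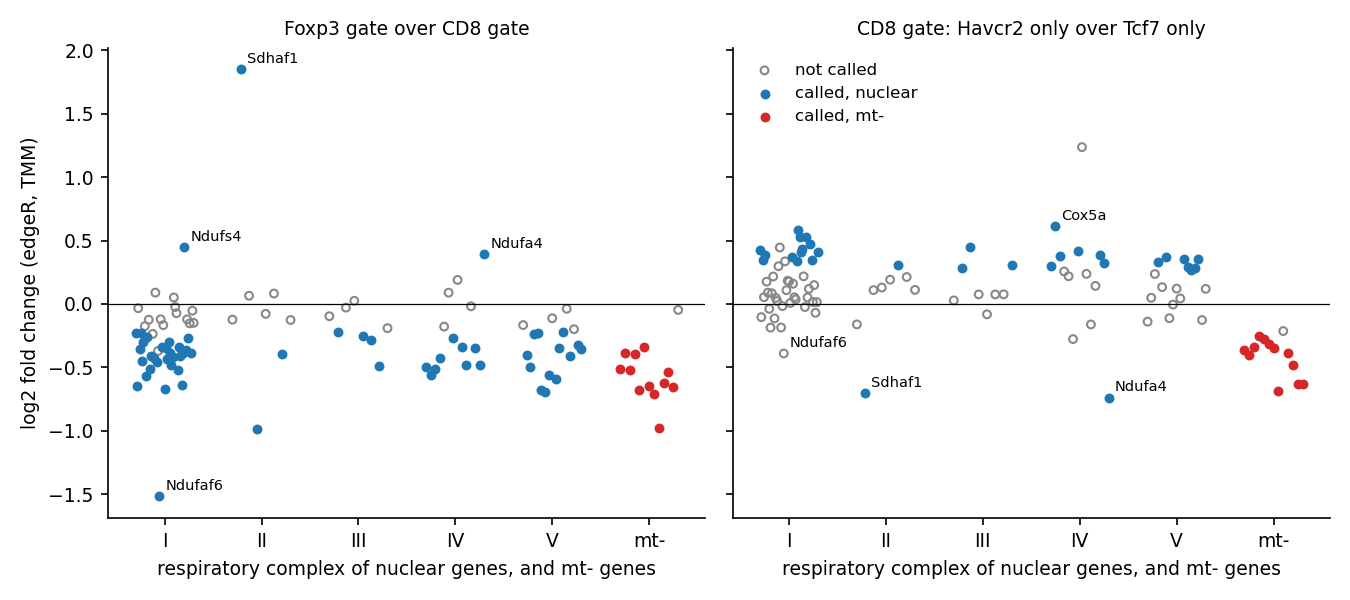
Log2 fold change from edgeR with TMM scaling for each member, for the Foxp3 gate over the CD8 gate (left) and Havcr2-only over Tcf7-only cells of the CD8 gate (right), with nuclear members in columns by complex and mt- members in the last column. Filled points passed an adjusted p under 0.05 and open points did not; the mt- column lies below 0 in both panels, while filled nuclear points lie mostly below 0 on the left (57 of 60) and mostly above 0 on the right (30 of 32).

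Among mt- members, mt-Nd2 showed the largest fall in the Havcr2 cells, at 79.2, 94.1 and 152 CPM against 143, 178 and 206 CPM (log2 fold change -0.69, SE 0.11, edgeR adjusted p = 0.0052). It was followed by mt-Nd5 at -0.63, mt-Nd6 at -0.63, mt-Nd4l at -0.48, mt-Atp8 at -0.40, mt-Nd4 at -0.39 and mt-Atp6 at -0.37. The smallest called changes were in mt-Nd1 (-0.35), mt-Co1 (-0.34), mt-Cytb (-0.32), mt-Co3 (-0.27) and mt-Co2 (-0.25). Complex I genes thus filled the first places of this order, but mt-Nd1 was among the smallest called changes and mt-Nd3 was not called. A difference between complexes was not tested. The summed mt- share was 0.361%, 0.404% and 0.634% in the Havcr2 cells and 0.476%, 0.563% and 0.781% in the Tcf7 cells. Within each library the Havcr2 cells were lower, while homo was above PBS and mix in both groups.

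Cycling cells of the CD8 gate, with a UMI of Mki67 or Top2a, were set against cells with neither. By edgeR's quasi-likelihood test over 12653 genes, 37 of 93 nuclear members were higher in cycling cells and 5 lower, where 17.7% of all genes were higher, 16.7% lower and 34.5% either. The changes were small, with a median log2 fold change of 0.084 against -0.028 for all genes. Ndufaf2, a complex I assembly factor, was at 23.0, 26.6 and 21.0 CPM in cycling cells of PBS, mix and homo against 16.3, 18.5 and 15.7 CPM (0.46, SE 0.07, edgeR adjusted p = 0.00016). Ndufab1, the acyl carrier protein of complex I, was at 0.33, Ndufc2 at 0.31 and the c ring gene Atp5g3 at 0.31. Lower were Ndufa6 at -0.27, Uqcrh, a hinge subunit of complex III, at -0.26, Ndufaf1 at -0.23 and Cox7a2l at -0.16. Of the mt- members only mt-Nd1 (0.11) was called higher and mt-Co1 (-0.16) lower.

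The nuclear direction differed when depth was held narrow. Cycling cells had medians of 7066, 7623 and 9194.5 UMIs against 4771, 5197 and 6235, and in cells of 3000 to 8000 UMIs 1 nuclear member was higher and 7 were lower. Across CD8-gate cells, the nuclear share was higher in cells with more UMIs, with Spearman correlations of 0.33 in PBS, 0.35 in mix and 0.35 in homo, which share a library and its depth. Cells with 1000 to under 3000 UMIs had nuclear shares of 2.13%, 2.01% and 1.97%, and cells of at least 12000 UMIs 2.73%, 2.64% and 2.61%. The mt- share of the CD8 gate was higher at low depth. It was 0.520%, 0.600% and 1.60% in the shallowest cells and 0.384%, 0.423% and 0.598% in the deepest. Its Spearman correlations with UMIs were -0.015, -0.014 and -0.10 in the CD8 gate of PBS, mix and homo. In the Foxp3 gate they were 0.15, 0.088 and 0.18. Per cell, mt- and nuclear shares were weakly correlated at -0.11, -0.12 and -0.17 in the CD8 gate and at 0.11, 0.054 and 0.12 in the Foxp3 gate.

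**Figure D3:**
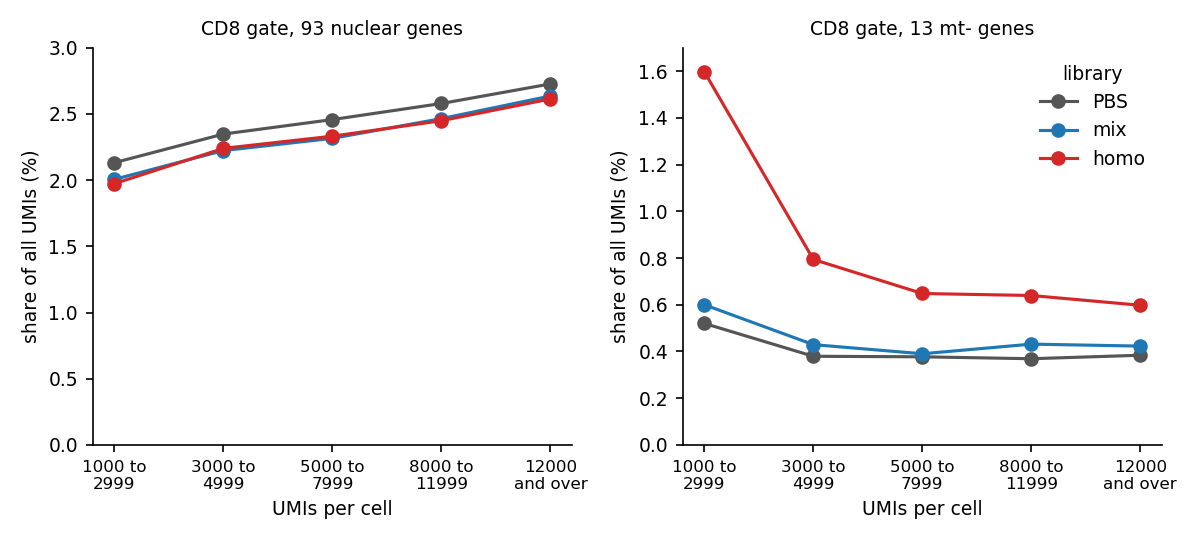
Share of UMIs on nuclear (left) and mt- members (right) in cells of the CD8 gate, in percent, against UMIs per cell in 5 classes, with 1 line per library. The nuclear lines rise with depth, from 1.97% to 2.13% in the shallowest class to 2.61% to 2.73% in the deepest; the mt- line of homo lies above the others in each class, at 1.60% in the shallowest and 0.598% in the deepest.

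Libraries were then compared within each gate, to ask how treatment relates to respiratory genes. No test was possible between single libraries, and 95% intervals cover counting error only. A gene entered at 50 CPM or more in one of the libraries compared, and members whose log2 ratio was at least 0.32 in size are counted as past the threshold. In the CD8 gate, all 11 mt- genes that entered were past it and higher in homo than in PBS, where 9.12% of 3016 genes were higher, 14.3% lower and 23.4% either. Of these, mt-Atp8 entered only through homo, and the 10 that reached 50 CPM in both libraries were all higher. Of 79 nuclear members 4 were higher and 6 lower, and of the 75 at 50 CPM in both libraries 3 and 5. The summed mt- members had a log2 ratio of 0.79 (95% interval 0.79 to 0.80), and the summed nuclear members -0.025 (-0.029 to -0.021).

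The largest ratio was that of mt-Atp8, which was under 50 CPM in PBS and mix, at 37.2 CPM in PBS, 39.6 in mix and 179 in homo (log2 ratio of homo over PBS 2.27, 2.19 to 2.35). mt-Atp6, with which it shares bases, was at 774, 899 and 1178 CPM (0.61, 0.59 to 0.63). Reads of the shared bases fit both genes, so these ratios may not be independent. mt-Atp8 was 0.964% and 0.938% of the UMIs of mt- members in PBS and mix and 2.68% in homo, so its ratio was above that of the mt- genes together. mt-Co3 was at 309.8, 377 and 713 CPM (1.20, 1.17 to 1.23) and mt-Cytb at 257, 335 and 574 CPM (1.16, 1.13 to 1.19). The other ratios were 0.86 for mt-Co2, 0.84 for mt-Nd2, 0.77 for mt-Nd5, 0.71 for mt-Nd1, 0.66 for mt-Co1, 0.62 for mt-Nd4 and 0.39 for mt-Nd4l. mt-Nd3 and mt-Nd6 did not enter. They were at 22.1 and 8.45 CPM in PBS and at 46.2 and 13.7 CPM in homo.

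Nuclear members past the threshold in the CD8 gate of homo over PBS were few and spread over complexes. Cox7a2l was at 145 CPM in PBS, 155 in mix and 203 in homo (log2 ratio 0.49, 0.44 to 0.54), Sdhc, a membrane anchor of complex II, at 38.0, 42.2 and 50.7 CPM (0.42), so that it entered only through homo, and Ndufa10 at 86.7, 83.1 and 111 CPM (0.36). Lowest was Atp5g1, at 265, 234 and 188 CPM (-0.50, -0.54 to -0.46). Ndufa5 was at -0.44, Uqcrb at -0.39 and Atp5md, a membrane subunit of the ATP synthase, at -0.38, and Ndufab1 and Ndufaf8 were the other members past it. The count depended on scaling. With TMM factors, or with totals that leave out mt- and ribosomal protein genes, 5 were higher and 4 lower.

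In the Foxp3 gate mt- genes were also higher in homo. All 11 that entered were past the threshold and higher in homo than in PBS, where 21.2% of 3656 genes were, and their sum had a log2 ratio of 1.16 (1.10 to 1.22). The 9 at 50 CPM in both libraries were all higher, since mt-Atp8 and mt-Nd5 entered only through homo. The ratio was above that of the CD8 gate, 0.79, but was 0.89 with a mitochondrial limit of 5%, and the difference between the gates was not tested. mt-Atp8 was at 29.4, 31.2 and 194 CPM in PBS, mix and homo (2.72, 2.30 to 3.15), mt-Co3 at 204, 234 and 648 CPM (1.67) and mt-Cytb at 213, 261 and 663 CPM (1.64). Nuclear members were higher in 2 of 79 and lower in 5, against 18.3% of all genes lower and 39.5% past the threshold in either direction. Cox7a2l, at 105, 126 and 190.3 CPM (0.85, 0.50 to 1.19), and Ndufb5 (0.41, 0.088 to 0.72) were higher. Ndufaf3, a complex I assembly factor, at 64.0, 57.9 and 35.6 CPM (-0.85, -1.65 to -0.13), rested on 17 UMIs in homo. Ndufb6 (-0.42), Ndufb8 (-0.40) and Sdha (-0.38) were the other members lower by the threshold. Atp5g1 was at 187, 161 and 132 CPM (-0.51, -0.90 to -0.13). Cox7a2l and Atp5g1 thus had the highest and 1 of the lowest nuclear ratios in both gates.

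**Figure D4:**
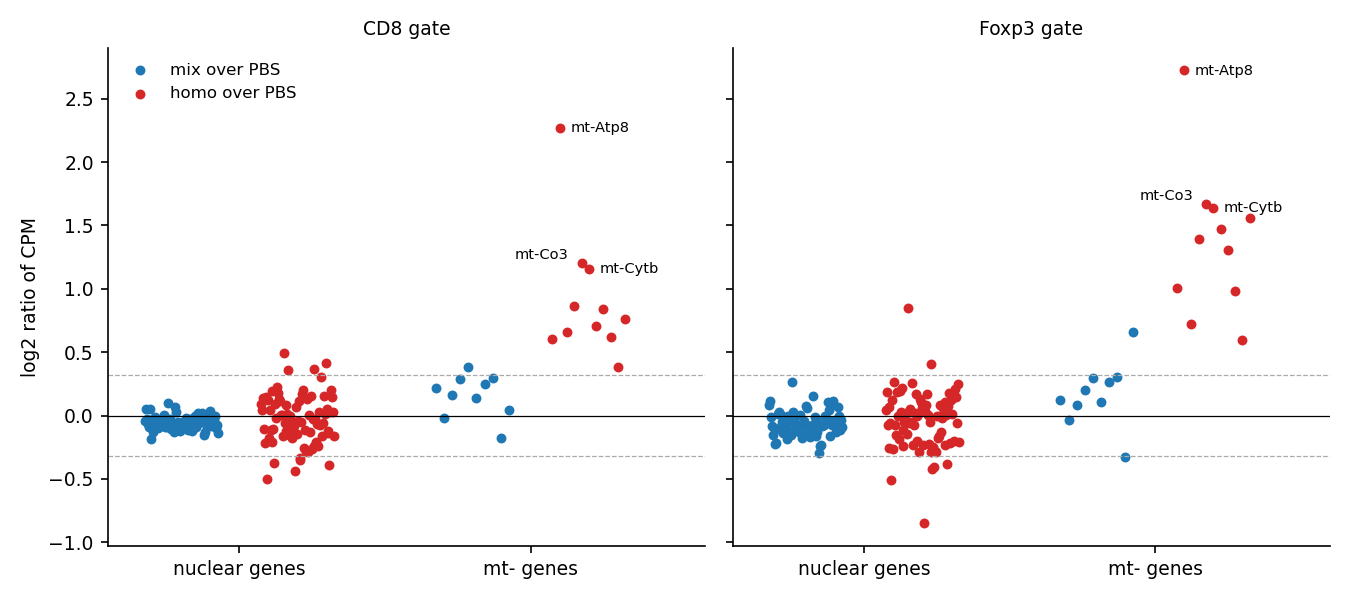
Log2 ratio of CPM of mix over PBS (blue) and homo over PBS (red) for members with at least 50 CPM in either library, in the CD8 gate (left) and the Foxp3 gate (right), with dashed lines at the threshold of 0.32 in either direction. Each point is 1 gene in 1 pair of libraries without replicates; the red mt- points lie above the upper line in both gates, with mt-Atp8 highest at 2.27 and 2.72, while nuclear points gather around 0.

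The mix library lay close to PBS. In the CD8 gate 0 of 76 nuclear members were past the threshold, where 3.16% of 2947 genes were (2.04% higher and 1.12% lower), and 11 of them were above 0. The nuclear sum had a log2 ratio of -0.057 (-0.061 to -0.053) and the mt- sum 0.13 (0.12 to 0.14). Of 10 mt- genes mt-Cytb passed it (0.38, 0.35 to 0.42), and mt-Nd4l was the lowest (-0.18). Among nuclear members Atp5g1 (-0.18), Ndufs8 (-0.16), Uqcrq (-0.14) and Atp5g3 (-0.13) were lowest by their intervals and Cox7a2l (0.095), Ndufa12 (0.071), Atp5b (0.052) and Atp5f1 (0.048) highest. In the Foxp3 gate 0 of 78 nuclear members passed it, where 4.88% of 3403 genes did (2.41% higher and 2.47% lower). Of 10 mt- genes there, mt-Nd5 was higher (0.66, 0.34 to 0.98), at 39.7 CPM in PBS and 62.6 in mix, so that it entered only through mix, and mt-Nd4l lower (-0.32, -0.49 to -0.16). The nuclear genes lowest by their intervals were Atp5g2 (-0.22), Cox5b (-0.18), Ndufa4 (-0.17) and Atp5e (-0.16), and Cox7a2l (0.26) and Atp5b (0.12) were highest.

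Between homo and mix, which share the homo library with the first comparison, the 11 mt- genes that entered were past the threshold and higher in homo in both gates, as were the 10 in each gate that reached 50 CPM in both libraries. Of 3005 genes in the CD8 gate 8.49% were higher and 22.8% past it in either direction, and of 3657 genes in the Foxp3 gate 20% and 37.6%. The mt- sums had log2 ratios of 0.66 and 1.08. In the CD8 gate 3 of 79 nuclear members passed it, all higher in homo, led by Ndufa10 (0.42) and Cox7a2l (0.40). Ndufv2 was just inside it (0.32), and Uqcrb (-0.32), Ndufa5 (-0.32), Atp5g1 (-0.31) and Atp5md (-0.28) were lowest. In the Foxp3 gate 6 of 79 were higher and 2 lower. Cox7a2l (0.59), Ndufb5 (0.42), Atp5g2 (0.34) and Uqcrh (0.28) led by their intervals, and no nuclear member had an interval wholly below 0. The 2 lower ones were Ndufaf3 (-0.70) and Sdha (-0.47).

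The mt- level of homo was set beside measures of cell quality. Of barcodes with enough genes and UMIs, 51 in homo, 2 in mix and 0 in PBS were over the mitochondrial limit of 10% and had been left out. Over a limit of 5%, no limit and the other alternatives, the log2 ratio of the mt- sum of homo over PBS ranged from 0.77 to 0.93 in the CD8 gate and from 0.89 to 1.32 in the Foxp3 gate. Homo lay above PBS in each of the 5 depth classes of the CD8 gate, with the widest gap in cells of 1000 to under 3000 UMIs. Cycling cells were 21.4%, 23.0% and 29.7% of the CD8 gate in PBS, mix and homo. The library and its treatment cannot be told apart with 1 library per group.

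Tissue-restricted isoforms of complex IV were at low levels in the CD8 gate. Cox7a1, the heart and muscle form, was at 1.21, 1.24 and 1.71 CPM in the CD8 gate of PBS, mix and homo, where its widely expressed partner Cox7a2 was at 409.5, 385 and 367 CPM. Cox6a2, another muscle form, was at 0.510, 0.734 and 0.059 CPM beside Cox6a1 at 253, 254 and 274 CPM, and Cox6b2, a testis form, at 1.24, 1.10 and 2.46 CPM beside Cox6b1 at 549.7, 516 and 552 CPM. Cox4i2, a lung form, and Cox8b, a muscle form, had 6 and 2 UMIs over all cells, where Cox4i1 had 168903 and Cox8a 224400. Cox6a2 had 413, 409 and 89 UMIs over all cells of PBS, mix and homo, but 21, 26 and 3 in the CD8 gate and 1, 0 and 0 in the Foxp3 gate. In the tested comparisons these isoforms either did not pass the test or were under its count filter.

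Genes of neighbouring mitochondrial pathways were counted in 7 lists, beside 20.4% of all genes tested lower and 20.5% higher in the Foxp3 gate. In the Foxp3 gate over the CD8 gate, 15 of 27 protein import genes were lower and 0 higher by edgeR (median log2 fold change -0.30), with Dnajc15, a partner of the inner membrane import motor, at -1.56 and Timm9, an import chaperone, at -1.09. Of 25 genes of the TCA cycle and pyruvate oxidation, 11 were lower and 1 higher (-0.20). The higher one was Idh2, the NADP-linked isocitrate dehydrogenase (1.20), while Suclg1 of succinate-CoA ligase was at -0.70. Of 19 electron carrier genes 8 were lower and 2 higher (-0.34). Among them Gpd2, the glycerol 3-phosphate dehydrogenase that feeds electrons into ubiquinone, was at 9.92, 8.82 and 4.18 CPM in the Foxp3 gate and 78.0, 88.9 and 59.2 CPM in the CD8 gate (-3.34, SE 0.14, edgeR adjusted p = 3.7e-10).

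The other 4 lists are read beside the same shares of all genes, and the counts of lower genes for mtDNA expression and assembly lie near the share lower. Of 31 genes for mtDNA expression, 7 were lower and 2 higher (median -0.29), with Tfb1m, an rRNA methyltransferase, at -1.13, Lrpprc, which stabilises mitochondrial mRNAs, at -1.06, and the mtDNA polymerase genes Polg and Polg2 at 1.14 and 0.62. Of 40 assembly factors outside the rule, 11 were lower and 2 higher (-0.26), with Cox10 at -0.97 and Cox19 at 0.41. Of 16 antioxidant and carrier genes, 7 were lower and 4 higher (-0.14), with the ADP/ATP carrier Slc25a4 at -1.15 and the glutathione peroxidase Gpx1 at 1.0. Of 12 regulators, 2 were lower and 2 higher (0.061), with the coactivator Ppargc1b at -1.89 and Gabpb1, a subunit of GABP, at 0.68.

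In Havcr2 over Tcf7 cells most list members did not pass edgeR's test, and 15.1% of all genes tested were higher and 15.0% lower. Gpd2 was at 101, 109 and 67.2 CPM in the Havcr2 cells of PBS, mix and homo and 18.1, 16.6 and 24.4 CPM in the Tcf7 cells (log2 fold change 2.22, SE 0.23, edgeR adjusted p = 0.00093). Idh2 was at 2.67, 2.93 and 2.97 CPM against 15.0, 17.3 and 12.2 CPM (-2.31, SE 0.20, edgeR adjusted p = 0.00059). Each library showed both differences without overlap between the cell groups. Electron carriers had 3 of 18 higher and 1 lower, and the TCA list 4 of 25 in each direction, near the shares of all genes. Of 40 assembly factors 7 were higher and 0 lower, led by Cox17, a copper chaperone of complex IV, at 684, 658 and 426 CPM against 243, 229.9 and 258 CPM (1.29, SE 0.16). Protein import had 5 of 27 higher and 1 lower, mtDNA expression 2 of 30 higher and 0 lower (Ssbp1 at 0.38 and Slirp at 0.35), antioxidant genes 2 of 16 in each direction (Prdx5 at 0.71, Gpx1 at -0.39) and regulators 1 of 12 higher and 2 lower (Myc at -1.23 and Ppargc1b at -1.37).

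In cycling over non-cycling cells, where 17.7% of all genes were higher and 16.7% lower, 8 of 27 import genes were higher and 0 lower by edgeR, led by Timm8a1 (0.63) and Timm50 (0.49), and 7 of 18 electron carriers were higher and 0 lower, led by the ubiquinone synthesis genes Coq7 (0.99) and Pdss1 (0.66). The TCA list had 6 of 25 higher and 3 lower (Fh1, fumarase, at 0.50), antioxidant genes 5 of 16 higher and 0 lower (Vdac1 at 0.39), mtDNA expression 5 of 31 higher and 1 lower (Fastkd3 at 0.60), regulators 4 of 12 higher and 1 lower (Hcfc1 at 0.48), and assembly factors 4 of 40 higher and 8 lower (Surf1 at -0.36). Between homo and PBS in the CD8 gate, 5 of 20 import genes were lower past the threshold and 1 higher, and 2 of 11 TCA genes were higher, where 9.12% of all genes were higher and 14.3% lower. Of the 3 genes for mtDNA expression that entered, 0 passed it (median -0.16), where the mt- genes had a median of 0.77.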

How the data were processed

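The deposited matrices hold UMI counts per gene and cell barcode, not normalized. Per the file headers they were made with Cell Ranger 7.1.0, whereas Cell Ranger 2.1.1, Seurat 4.1.0 and mm39 stand in the submitters' processing notes. A barcode was kept with 500 or more genes, 1000 or more UMIs and a mitochondrial share under 10%, and the highest Scrublet doublet scores (scanpy 1.11.5) were removed at 0.8% per 1000 barcodes, which left 9214, 7588 and 7303 cells in PBS, mix and homo. The deposited counts were summed per library and gate and tested with edgeR 4.0.16 (quasi-likelihood, TMM, library as block, Benjamini-Hochberg over all genes). The block pairs cell groups of 1 library. Library pairs were compared by CPM with exact conditional binomial intervals. Alternatives included DESeq2 1.42.0. The fit was tested on simulated data. Reads of pseudogenes or near-identical copies may be split among members. Named were the mt- genes, the 4 highest and 4 lowest nuclear members of each comparison, restricted isoforms and partners, the Atp5g genes, Ndufa4, Cox7a2l and up to 2 highest and 2 lowest genes per list. Members and lists were chosen with earlier results of these data known. Promoters came from RefSeq and gene positions from GENCODE, neither in the build of the files. 1 item is not reported here.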

Additional observations from a re-analysis of the deposited data

How the results depend on the processing

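Of the counts of members recomputed under each alternative, 163 equalled the reported count or stayed within 1.5 times it, without reversing between higher and lower. Of the rest, 20 counts of test calls fell further, 10 counts of library ratios moved further and 5 counts reversed direction. In the Foxp3 over CD8 comparison, nuclear calls numbered 33 with library totals and 34 to 68 with 1 library left out, and mt- calls 9 to 12. Without the replicate block, which pairs cell groups of 1 library, mt- calls there fell to 1. In cycling cells, nuclear calls were 8 at 3000 to 8000 UMIs (1 higher, 7 lower) and 2 without the replicate block. The mt- calls were 1 at that depth, 1 with DESeq2, 1 without the low count filter, 0 without the replicate block and 1 to 2 with 1 library left out. In Havcr2 over Tcf7 cells, nuclear calls were 20 at 3000 to 8000 UMIs, 19 without the replicate block, 20 with totals that leave out mt- and ribosomal protein genes (chosen after seeing the data) and 2 to 45 with 1 library left out. The mt- calls were 6 with DESeq2, 0 without the replicate block and 1 to 12 with 1 library left out. A lone pair of libraries leaves few degrees of freedom in these fits. Nuclear members past the library threshold also moved. For homo over PBS in the CD8 gate they were 9 with TMM and 9 without mt- and ribosomal protein genes (5 higher, 4 lower in each). For homo over mix there they were 6 at 3000 to 8000 UMIs, 6 without cells with Mki67 or Top2a, 5 by mean CPM per cell and 5 with TMM. In the Foxp3 gate they were 17 at 3000 to 8000 UMIs and 14 with TMM for homo over PBS. For mix over PBS they were 2 at 3000 to 8000 UMIs, 1 with gates of 2 UMIs and 1 by mean CPM per cell. For homo over mix they were 15 at 3000 to 8000 UMIs, 10 without cells with Mki67 or Top2a (4 higher, 6 lower) and 9 with TMM (2 higher, 7 lower). The cause of these shifts was not tested. The Foxp3 gate of homo, with 124 cells, sets the depth limit, and all library ratios lack replicates.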
